A study of Mus musculus with 12 samples.

Results

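Claudins and tight junction proteins were followed at the RNA level in the duodenum and the liver of mice given corticosterone (CORT) or vehicle (Veh). The 10 genes were chosen by their symbols, Cldn1, Cldn2, Cldn3, Cldn4, Cldn7, Cldn15, Cldn23, Ocln, Tjp1 and F11r, and all 10 were found in both tables, each of which lists 55416 genes. The mice were male C57BL6/J animals, 8 weeks old at the start. One group received CORT, the main glucocorticoid of rodents, injected subcutaneously at 40 mg/kg daily for 8 weeks, and the Veh group received the solvent (DMSO and Tween-80 in water) on the same schedule. Frozen pieces of whole tissue were sequenced, so every value is a mixture of cell types, and 3 CORT and 3 Veh libraries per tissue gave 12 libraries in all, labelled as biological replicates.

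Tight junctions seal the space between neighbouring epithelial cells close to the lumen. Claudins are the membrane proteins that form the strands of the junction, and which claudins a tissue makes sets whether its junctions are tight or leak water and small ions. Occludin runs in the same strands, junctional adhesion molecules sit at the same junction, and zonula occludens scaffolds tie the strands to the actin cytoskeleton. In the small intestine the junctions control what passes between absorptive cells, and in the liver they separate the bile canaliculi between hepatocytes from the blood.

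In the liver Cldn3, a sealing claudin, fell with CORT to 0.406 of its Veh mean. Cldn23 was the only member to pass the test in the duodenum, where it fell to 0.603 of its Veh mean. Leaving out 1 library at a time lost the call of Cldn23 in 6 of 6 fits and that of Cldn3 in 4 of 6. Over all genes the calls also changed in these fits, from 292 to between 66 and 237 in the duodenum. In the liver they went from 810 to between 247 and 831. Without passing the test, Cldn4, Cldn7 and Cldn15 were lower in every CORT library than in every Veh library of the duodenum. The same held for Cldn1, Cldn7, Ocln and F11r in the liver. Such a separation held for 14.3% of all genes tested in the duodenum and for 11.6% in the liver. Cldn7 in the liver was at most 1.74 TPM and passed the filter at a mean of 1 TPM only through its Veh mean. Tjp1 and Cldn2 did not separate the groups in either tissue. A call here means a limma adjusted p of 0.05 or less over all genes tested in that tissue and a fold change over 1.5.

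The values are TPM, relative transcript abundances scaled to transcript length, so that genes of a library can be compared. They sum to between 983327 and 997319 per library, and the number of reads behind them is unknown, so the error given is the spread between 3 libraries. Fkbp5, a gene induced by glucocorticoids, had log2 fold changes of 4.30 in the duodenum and 4.23 in the liver, and passed in both. The tissues carried their own markers, with Vil1 of the brush border between 839 and 1436 TPM in the duodenum and at most 0.34 TPM in the liver, and the hepatocyte product Alb between 32823 and 59476 TPM in the liver and at most 0.39 TPM in the duodenum. One difference between libraries is not explained by the labels. In the duodenum 17 genes of the pancreatic acinus accounted for 3.86% of TPM in Veh2 and for 3.07% in Veh3, against 0.0180% in Veh1 and 0.0144% to 0.0319% in the CORT libraries. Tff2, a marker of the duodenal Brunner glands, stood at 144 and 145 TPM in the same Veh libraries, at 0.76 TPM in Veh1 and at most 0.18 TPM with CORT. Muc6, the other Brunner gland marker listed, was not found, so that list rests on Tff2 alone.

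Levels in the Veh duodenum ran over a wide range. Cldn7, a claudin of the lateral membrane, led with 691 ± 61.6 TPM (SD, n = 3), followed by Cldn15, which forms sodium-conducting pores in the small intestine, with 432 ± 60.3 TPM (SD, n = 3), and Cldn3 with 332 ± 50.2 TPM (SD, n = 3). F11r, which encodes the junctional adhesion molecule JAM-A, came next with 99.0 ± 8.02 TPM (SD, n = 3). Cldn4, a sealing claudin, had 57.0 ± 18.1 TPM (SD, n = 3), Ocln, which encodes occludin, 36.6 ± 4.17 TPM (SD, n = 3), and Cldn2, a pore for cations and water, 29.5 ± 6.50 TPM (SD, n = 3). The ranges of Cldn4 and Ocln overlapped, as did those of Ocln and Cldn2, so their order is not settled by these libraries. Cldn23 stood at 17.2 ± 2.00 TPM (SD, n = 3) and Tjp1, the gene of the scaffold ZO-1, at 14.97 ± 0.795 TPM (SD, n = 3), with ranges that did not overlap. Cldn1 was at most 0.26 TPM in any duodenal library and was not tested there.

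The Veh liver had another order, with Cldn1 at levels not seen in the duodenum. Cldn3 led with 108 ± 24.7 TPM (SD, n = 3), clear of F11r with 34.6 ± 11.3 TPM (SD, n = 3). F11r, Cldn2 at 23.6 ± 4.95 TPM (SD, n = 3) and Cldn1 at 19.1 ± 8.72 TPM (SD, n = 3) overlapped one with the next. Ocln at 7.91 ± 2.65 TPM and Tjp1 at 6.003 ± 2.70 TPM (SD, n = 3 each) overlapped too, and Cldn7 had 1.30 ± 0.440 TPM (SD, n = 3). Cldn4, Cldn15 and Cldn23, all measured in the duodenum, were at most 0.34 TPM in any liver library and were not tested there. The 2 tables were made separately, so the levels are set side by side without a test between tissues.

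**Figure D1:**
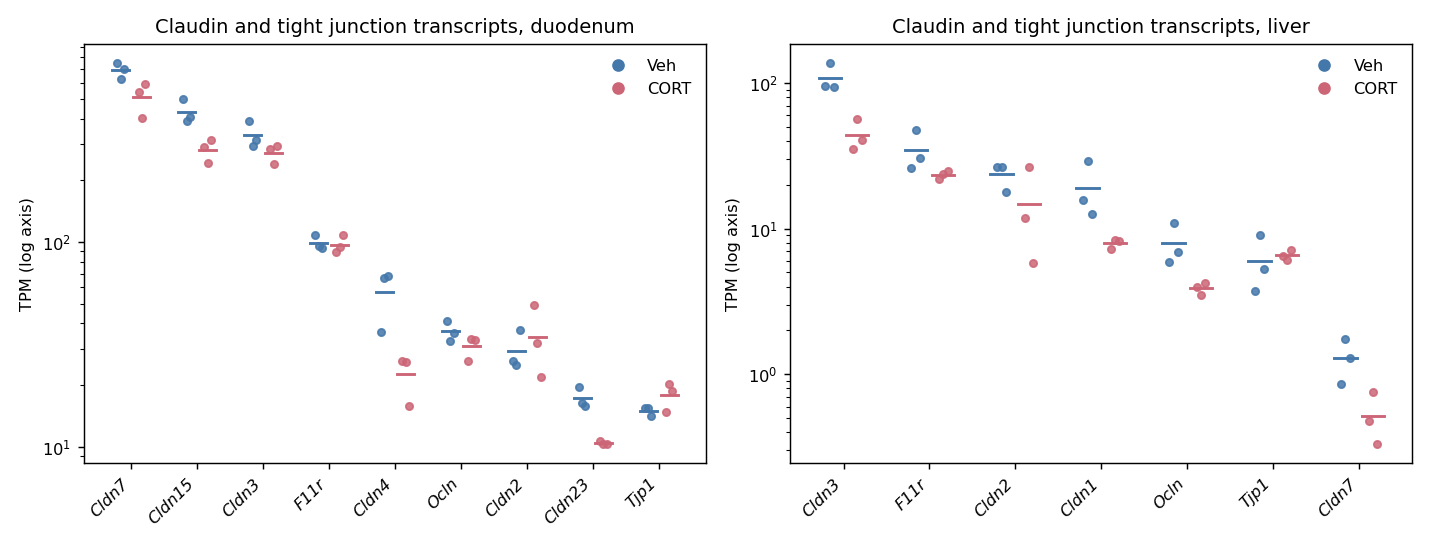
TPM on a log axis for the members tested in the duodenum (left) and the liver (right), ordered by Veh mean, with 1 point per library, Veh in blue and CORT in red, and a bar at each group's mean. In the duodenum the CORT points of Cldn7, Cldn15, Cldn4 and Cldn23 all lie below the Veh points, and in the liver those of Cldn3, F11r, Cldn1, Ocln and Cldn7 do.

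Promoter sequence is shown for the members with the largest fitted changes, Cldn3 and Cldn1 in the liver and Cldn4 and Cldn15 in the duodenum, among the 9 of 10 members with an entry in RefSeq (GRCm38.p6). Cldn23 is the member without one. The stretches hold the 250 bases before the annotated start, 5′ to 3′ in the direction of the gene. Capitals mark matches on either strand to the AP-1 site TGANTCA, the GC box GGGCGG, the E-box CAGGTG or AGAACA, the half-site of the glucocorticoid receptor. Cldn3 and Cldn4 are neighbours on chromosome 5, and Cldn15 lies on the same chromosome. The windows are at chr5:134985964-134986213, forward strand, for Cldn3; chr5:134946935-134947184, reverse strand, for Cldn4; chr5:136967619-136967868, forward strand, for Cldn15; and chr16:26371840-26372089, reverse strand, for Cldn1.
Cldn3: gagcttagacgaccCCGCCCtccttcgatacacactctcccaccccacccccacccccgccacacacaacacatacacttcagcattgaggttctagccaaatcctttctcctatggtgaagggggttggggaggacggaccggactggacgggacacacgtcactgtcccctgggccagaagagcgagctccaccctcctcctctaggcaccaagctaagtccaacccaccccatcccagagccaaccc
Cldn4: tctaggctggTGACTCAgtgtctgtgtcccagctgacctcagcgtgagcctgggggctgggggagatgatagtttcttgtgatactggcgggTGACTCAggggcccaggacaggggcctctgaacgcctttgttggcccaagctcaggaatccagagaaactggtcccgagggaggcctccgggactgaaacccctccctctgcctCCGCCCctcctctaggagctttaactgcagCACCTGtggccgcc
Cldn15: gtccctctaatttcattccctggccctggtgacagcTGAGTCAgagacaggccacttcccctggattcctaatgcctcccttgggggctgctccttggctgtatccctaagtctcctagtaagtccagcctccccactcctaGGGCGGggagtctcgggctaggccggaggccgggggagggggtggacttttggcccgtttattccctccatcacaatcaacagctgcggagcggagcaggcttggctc
Cldn1: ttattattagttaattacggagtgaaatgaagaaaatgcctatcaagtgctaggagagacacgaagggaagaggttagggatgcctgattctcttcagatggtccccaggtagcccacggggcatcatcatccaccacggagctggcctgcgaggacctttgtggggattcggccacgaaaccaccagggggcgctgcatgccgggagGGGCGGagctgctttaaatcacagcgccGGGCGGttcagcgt

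The window of Cldn4 held 2 matches to the AP-1 site, found 2 or more times in 0.338% of the 32851 promoters searched over the same length, and that of Cldn15 held 1, found at least once in 6.75%. F11r also had 1 match, and the other members with an entry had none. The GC box was matched in each of the 4 windows printed and stands in 32.7% of promoters, and the E-box of Cldn4 in 17.2%. The palindrome of the glucocorticoid receptor, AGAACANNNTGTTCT, was in no member's window and in 0.00913% of promoters. Its half-site, in 16.1% of promoters, was matched only by Cldn2 among the members, 3 times with overlap. Both AP-1 matches of Cldn4 read TGACTCA on the printed strand, and that of Cldn15 reads TGAGTCA. These are matches of letters and not measured binding, and the motifs were chosen with the sequences in view.

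The first comparison asked how CORT changed the members in the duodenum. Of the 9 members tested, 1 was called, beside 2.15% of all 13607 genes tested, and it was lower, a call made for 0.919% of genes. In 4 of the 9, every CORT library lay below every Veh library, which held for 14.3% of all genes, and in 0 of the 9 every CORT library lay above. Their median log2 fold change was -0.28 on the log2(TPM + 1) scale, against -0.012 over all genes. Because TPM come from whole tissue, fewer cells of a type and less RNA per cell cannot be told apart here.

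Cldn23, a claudin of the differentiated gut epithelium, read 19.5, 16.3 and 15.8 TPM in Veh1, Veh2 and Veh3 and 10.6, 10.25 and 10.25 TPM in CORT1, CORT2 and CORT3. All CORT values sat within a narrow band well under the lowest Veh value. Its log2 fold change was -0.67 (standard error, SE, 0.13, 95% confidence interval -0.97 to -0.38, limma adjusted p = 0.0489). The adjusted p was close to the limit, and the call did not survive the removal of any 1 library (6 fits), with adjusted p between 0.0929 and 0.138. The log2 fold change of Cldn23 in these fits ran from -0.73 to -0.59.

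Cldn4 had the largest fitted change of the members in this tissue. It was at 36.1, 66.8 and 68.1 TPM in Veh1, Veh2 and Veh3 and at 26.1, 25.9 and 15.7 TPM in CORT1, CORT2 and CORT3. The groups did not overlap, but Veh1 was nearer to the CORT libraries than to the other Veh libraries. The log2 fold change was -1.28 (SE 0.30, limma adjusted p = 0.0857), and it did not pass. Veh2 and Veh3, the libraries with acinar transcripts and Tff2, were those with high Cldn4. Without both of them the log2 fold change was -0.69. That fit left Veh1 alone, assumed to vary like the CORT libraries, and could not decide a call. Without Veh1 the log2 fold change was -1.57 and passed (limma adjusted p = 0.0411). With the 17 acinar genes removed and each library rescaled, it was -1.31 (limma adjusted p = 0.0813).

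Cldn15 was lower in all CORT libraries. Veh1, Veh2 and Veh3 had 501, 389 and 406 TPM, and CORT1, CORT2 and CORT3 had 290.1, 243 and 315 TPM. The gap between the groups was 74.1 TPM wide, and the change of -0.61 (log2, SE 0.16, limma adjusted p = 0.109) did not pass. For Cldn7 the values were 748, 626 and 699.6 TPM with Veh and 543, 405 and 589.7 TPM with CORT, a gap of 36.2 TPM between the groups. Its log2 fold change was -0.44 (SE 0.18, limma adjusted p = 0.231). For both, Veh1 without the acinar transcripts held the highest value of the group. Without Veh2 and Veh3 the log2 fold changes were -0.83 for Cldn15 and -0.56 for Cldn7, in a fit with Veh1 alone that could not decide a call.

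**Figure D2:**
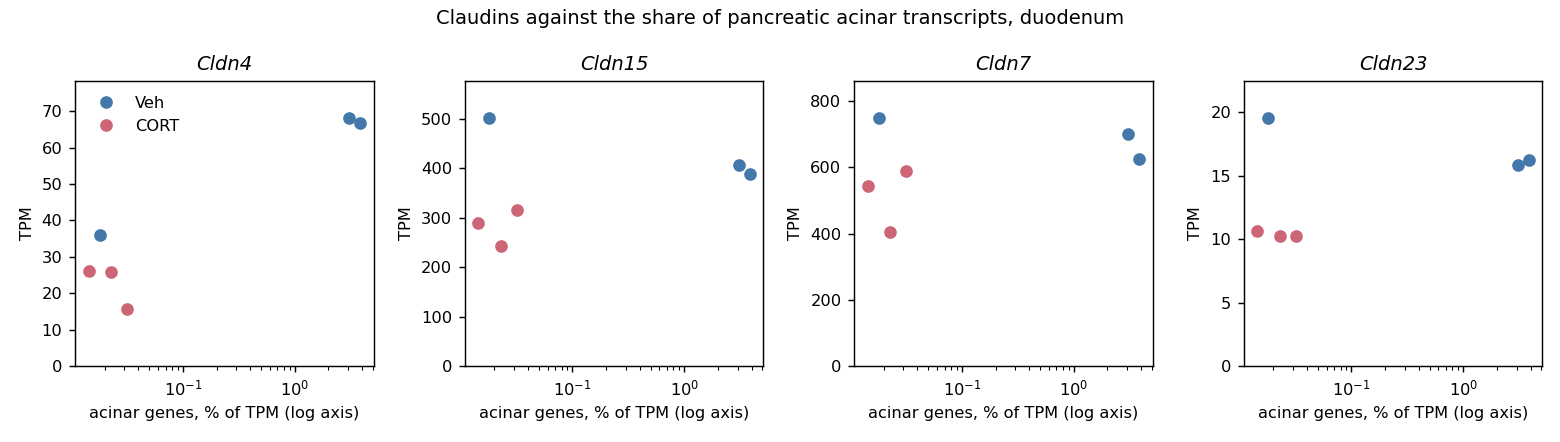
TPM of Cldn4, Cldn15, Cldn7 and Cldn23 in each duodenal library (linear axis from 0) against the share of TPM from 17 pancreatic acinar genes (log axis, percent), with Veh in blue and CORT in red. The Veh libraries with shares of 3.07% and 3.86% have the highest Cldn4, while the Veh library with 0.0180% has the highest Cldn15, Cldn7 and Cldn23.

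The groups overlapped for the remaining members. Cldn3 was at 389, 294 and 313 TPM with Veh and at 284, 241 and 294 TPM with CORT, where the lowest Veh value lay just below the highest CORT value (log2 fold change -0.28, limma adjusted p = 0.386). Ocln had 41.1, 32.9 and 35.8 TPM with Veh and 26.3, 33.4 and 33.1 TPM with CORT, so that 1 CORT library stood apart and the others mixed with the Veh libraries (log2 fold change -0.24, limma adjusted p = 0.425). Cldn2 spread most among the CORT libraries, from 21.9 to 49.2 TPM against 25.1 to 36.9 TPM with Veh (log2 fold change 0.16, limma adjusted p = 0.797). Tjp1 was the other member above 0, at 14.8 to 20.3 TPM with CORT and 14.1 to 15.5 TPM with Veh (log2 fold change 0.23, limma adjusted p = 0.428). F11r was at 89.5 to 108 TPM with CORT and 93.4 to 108 TPM with Veh, and the 95% confidence interval of its change ran from -0.34 to 0.28 on the log2 scale.

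Epithelial content was read from 6 markers, of which limma called 0 (1 had an unadjusted p under 0.05). Over all genes tested in the duodenum, 2618 of 13607 had an unadjusted p under 0.05. Krt8, Krt18 and Krt19, keratins of simple epithelia, were lower in every CORT library than in every Veh library, while Epcam, Vil1 and Krt20 overlapped. The geometric mean of the 6 was 842 to 948 TPM with Veh and 693 to 828 TPM with CORT. As a ratio to that mean, Cldn4, Cldn15 and Cldn23 had every CORT library below every Veh library, while Cldn7 overlapped. The mean was itself lower in every CORT library, and the share of all genes that separate as such a ratio was not computed. Cldn15 was then 44.4% to 52.8% of the marker mean with Veh and 35.0% to 40.3% with CORT, and Cldn23 was 1.86% to 2.06% with Veh and 1.28% to 1.48% with CORT. Of 8 absorptive enterocyte markers, 3 had every CORT library above every Veh library, and limma called 0 of the 8 (3 had an unadjusted p under 0.05). Their summed level was 17636 to 25984 TPM with Veh and 29490 to 33918 TPM with CORT, with Apoa4 as its largest part. Without Apoa4 the other 7 summed to 9338 to 13414 TPM with Veh and 12098 to 12608 TPM with CORT, which overlap, and Alpi, Anpep and Sis had log2 fold changes below 0. All 5 leukocyte and all 5 smooth muscle markers had log2 fold changes below 0 as well, and limma called 0 of either list (1 and 3 had an unadjusted p under 0.05). The leukocyte sum was 882 to 1089 TPM with Veh and 304 to 662 TPM with CORT, most of it from Jchain of antibody-secreting cells. Without Jchain the other 4 summed to 96.7 to 154 TPM with Veh and 81.9 to 173 TPM with CORT, which overlap. The smooth muscle sum was 418 to 833 TPM with Veh and 276 to 446 TPM with CORT. The part of these cell types in the member differences was not tested.

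The second comparison asked the same of the liver. Of the 7 members tested, 1 was called, beside 6.92% of all 11699 genes tested and 2.01% called lower. In 5 of the 7, every CORT library lay below every Veh library, which held for 11.6% of all genes, and in 0 of the 7 every CORT library lay above, which held for 20.6%. Cldn7 is among these 5 and passed the filter at 1 TPM only through its Veh mean. The median log2 fold change of the 7 was -0.82, against 0.078 over all genes. Of all genes called, 575 were higher and 235 lower, and 543 were higher and 468 lower after median-ratio scaling, which sets the typical gene of every library to the same level. That scaling moved the median of all genes to -0.0028.

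Cldn3 was the called member. Its values were 94.7, 137 and 93.8 TPM in Veh1, Veh2 and Veh3 and 35.0, 56.9 and 40.3 TPM in CORT1, CORT2 and CORT3. The lowest Veh value was 1.65 times the highest CORT value. The log2 fold change was -1.29 (SE 0.23, 95% confidence interval -1.83 to -0.75, limma adjusted p = 0.0239). The call was kept without Veh2 or without CORT2 and lost when any of the other 4 libraries was removed, with adjusted p of 0.0597 without Veh1, 0.0610 without Veh3, 0.0829 without CORT1 and 0.0600 without CORT3. The lncRNA gene Wbscr25 overlaps the end of Cldn3 in RefSeq, and it was at most 0.06 TPM in the liver.

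Cldn1, which seals junctions in liver and skin, was at 15.6, 29.0 and 12.6 TPM with Veh and at 7.28, 8.30 and 8.25 TPM with CORT. The CORT libraries lay close together and below all Veh libraries, which were widely spread. Its log2 fold change was -1.08 (SE 0.28, limma adjusted p = 0.0652). Ocln showed the same arrangement, with 5.86, 10.9 and 6.96 TPM in the Veh libraries and 3.96, 3.50 and 4.25 TPM in the CORT libraries (log2 fold change -0.82, SE 0.22, limma adjusted p = 0.0677). F11r was at 25.9, 47.3 and 30.5 TPM with Veh and at 22.0, 23.6 and 24.8 TPM with CORT, so the groups were separated by 1.1 TPM (log2 fold change -0.50, SE 0.22, limma adjusted p = 0.210). Under the median-ratio scaling Cldn1, Ocln and F11r passed as well, with limma adjusted p of 0.0246, 0.0204 and 0.0497. So 4 members were called there, beside 1011 of all 11654 genes tested.

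Cldn7 was low in the liver, at 0.86, 1.74 and 1.30 TPM with Veh and 0.48, 0.75 and 0.33 TPM with CORT. The groups did not overlap, and the change of -0.59 (log2, SE 0.24, limma adjusted p = 0.176), which the added 1 TPM makes small for a gene this low, did not pass. Cldn2 had 26.4, 26.5 and 17.9 TPM with Veh and 11.8, 26.6 and 5.80 TPM with CORT, with CORT2 at the level of the Veh libraries and the other CORT libraries below them (log2 fold change -0.85, SE 0.47, limma adjusted p = 0.302). Tjp1 was at 3.72 to 8.99 TPM with Veh and 6.08 to 7.17 TPM with CORT (log2 fold change 0.18, limma adjusted p = 0.697). Veh2 held the highest Veh value for 7 of the 7 members. Without it the log2 fold change of Cldn1 was -0.75 and passed (limma adjusted p = 0.0387).

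**Figure D3:**
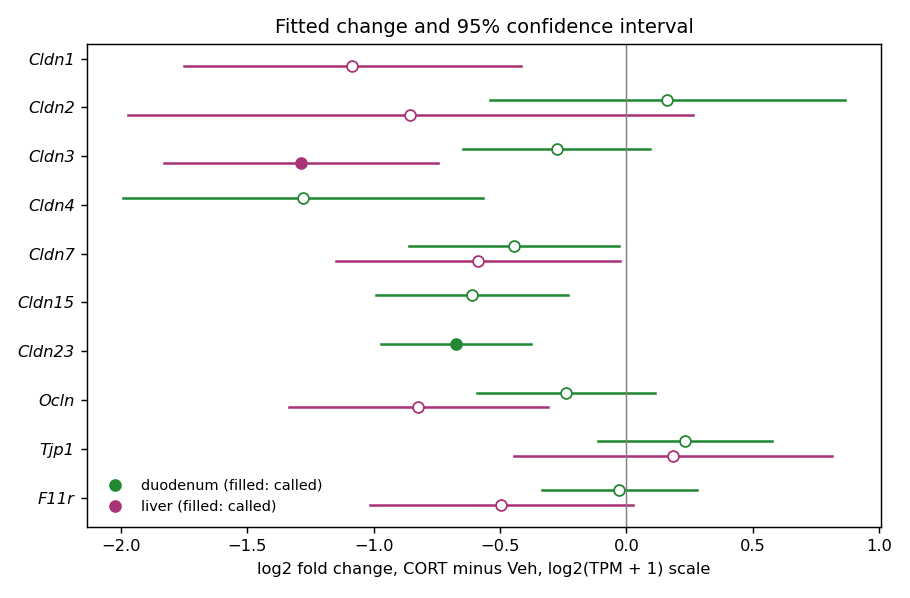
Log2 fold change of CORT minus Veh on the log2(TPM + 1) scale with its 95% confidence interval from limma, for each member in the duodenum (green) and the liver (purple), with filled points for called genes. Cldn23 in the duodenum (-0.67) and Cldn3 in the liver (-1.29) are filled, and Tjp1 is above 0 in both tissues with intervals that include 0.

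Cell type markers of the liver moved in more than one way. Of 6 hepatocyte markers limma called 0 (1 had an unadjusted p under 0.05). Over all genes tested in the liver, 3033 of 11699 had an unadjusted p under 0.05. The geometric mean of the 6 markers was between 6191 and 8077 TPM with Veh and 6812 and 7300 TPM with CORT. As a ratio to that mean the same 5 members had every CORT library below every Veh library. The share of all genes that separate as such a ratio was not computed. Cldn3 was 1.31% to 1.70% of the hepatocyte marker mean with Veh and 0.514% to 0.779% with CORT. Of the bile duct markers limma called 0 of 4 tested (1 had an unadjusted p under 0.05). Of these 4, 3 had log2 fold changes below 0 and 1 above, with a median of -0.36. The summed level of the list overlapped between groups (37.7 to 56.6 TPM with Veh, 20.9 to 45.9 TPM with CORT). Among its genes Cftr was at most 0.08 TPM and Krt19 at most 1.89 TPM. Endothelial markers summed to 5.71 to 15.9 TPM with Veh and 22.0 to 29.5 TPM with CORT, with 1 of 4 called higher (Pecam1). Their part in the member differences was not tested. Krt8 and Krt18, the keratins of hepatocytes and bile ducts, fell by 0.81 and 1.39 on the log2 scale (adjusted p in limma = 0.0393 and 0.0351).

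The difference of the CORT effect between tissues was tested for the 6 members expressed in both, in 1 fit of all 12 libraries. At an adjusted p of 0.05, 0 of the 6 differed, where 3.00% of the 10500 genes did, and 1 member had an unadjusted p under 0.05. That member was Cldn3, whose log2 fold change was lower in the liver by 1.01 (difference -1.01, SE 0.28, limma adjusted p = 0.0826). Under the median-ratio scaling the difference was -1.11 and passed (limma adjusted p = 0.0262), and it also passed without CORT2 of the liver (limma adjusted p = 0.0404). For Ocln the difference was -0.58 with an interval from -1.17 to 0.0012, and for Cldn7, whose fitted changes were -0.44 and -0.59, it was -0.14 with an interval from -0.70 to 0.41. With a pseudocount of 0.1 the Cldn7 difference was -0.74 and its liver change -1.18, neither called. The effects of the 6 members therefore cannot be ranked by tissue from these libraries.

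The make-up of all claudin transcripts was described from the 34 claudin genes listed. In the duodenum their sum was 1431 to 1737 TPM with Veh and 974 to 1268 TPM with CORT, and 7 member claudins supplied nearly all of it. Cldn7 held 43.1% to 44.9% of the claudin TPM with Veh and 41.6% to 46.5% with CORT. Cldn15 held 26.1% to 28.8% with Veh and 23.8% to 24.9% with CORT, and Cldn3 20.1% to 22.4% with Veh and 23.2% to 24.7% with CORT. The share of Cldn7 overlapped between groups, that of Cldn15 was lower and that of Cldn3 higher in each CORT library, while the sum itself was lower in each.

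The liver showed a different picture, in which the sum overlapped between groups (166 to 251 TPM with Veh, 152 to 169.7 TPM with CORT) but the shares of Cldn3, Cldn14, Cldn12 and Cldn1 did not, while those of Cldn2 and Cldn5 did. Cldn3 supplied 54.0% to 56.7% of the claudin TPM with Veh and 23.0% to 36.0% with CORT. Cldn14, a claudin of liver, kidney and inner ear outside the chosen members, supplied 6.002% to 7.92% with Veh and 16.9% to 43.6% with CORT. Cldn14 rose from 10.5, 19.9 and 10.8 TPM in the Veh libraries to 57.6, 26.7 and 74.0 TPM in the CORT libraries (log2 fold change 1.81, SE 0.40, limma adjusted p = 0.0443), and its call was lost in 4 of 6 leave-one-out fits. CORT2, with the highest Cldn3 of the CORT libraries, had the lowest Cldn14. Cldn12, a broadly expressed claudin, was at 23.9 to 32.0 TPM with Veh and 35.3 to 38.9 TPM with CORT in the liver (log2 fold change 0.46, limma adjusted p = 0.104), and at 11.01 to 13 and 11.98 to 18.2 TPM in the duodenum.

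**Figure D4:**
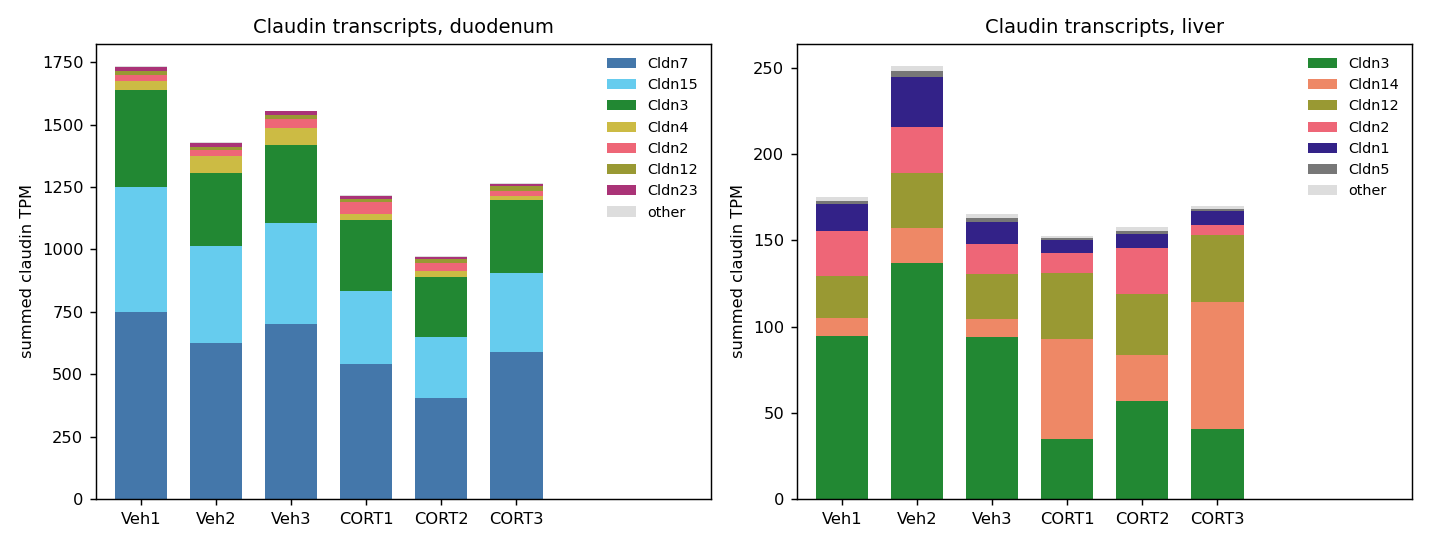
Summed TPM of all 34 claudin genes in each library of the duodenum (left) and the liver (right), stacked by gene, with claudins under 1% of the sum in every library grouped as other. In the duodenum the CORT bars are shorter, and each has a lower share of Cldn15 and a higher share of Cldn3 than every Veh bar. In the liver Cldn3 (green) takes 54.0% to 56.7% of the Veh bars and 23.0% to 36.0% of the CORT bars while Cldn14 (orange) takes more of the CORT bars.

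Genes that work beside the members were read from 4 lists: the other claudins, tight junction partners, adherens junction and desmosome genes, and regulators. In the duodenum 0 of 70 tested were called by limma. An unadjusted p under 0.05 was found for 8 of the 70, beside 2618 of all 13607 genes. With the fold as well it was 4 of the 70, beside 1395 of all genes. Every CORT library was above every Veh library for 11 of the 70 and below for 4, which over all genes held for 12.2% and 14.3%. The median log2 fold change of the 70 was 0.060. In the liver 9 of 62 tested were called, 4 higher and 5 lower, beside the 6.92% of all genes called there and 2.01% called lower.

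Genes of cell adhesion were among the lower ones in the liver. Cdh1, which encodes E-cadherin of the adherens junction, was at 10.9, 22.0 and 8.49 TPM with Veh and 2.59, 1.10 and 3.12 TPM with CORT (log2 fold change -2.13, SE 0.38, limma adjusted p = 0.0244). The desmosome genes Dsg2 and Dsp fell by 0.89 and 0.96 on the log2 scale (adjusted p in limma = 0.0455 and 0.0372). Mpdz, a scaffold of tight junctions also called MUPP1, fell by 1.12 (limma adjusted p = 0.0225). Spint2, an inhibitor of membrane serine proteases, fell by 0.62 (limma adjusted p = 0.0490).

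The higher genes had other roles. Jam2, a junctional adhesion molecule known from endothelium, was at 0.39, 0.96 and 0.74 TPM with Veh and 3.59, 5.34 and 4.61 TPM with CORT (log2 fold change 1.70, SE 0.21, limma adjusted p = 0.00702), and it kept its call in all 6 leave-one-out fits. It passed the filter at 1 TPM only through its CORT mean. The endothelial markers named above moved the same way, and their part was not tested. Mylk, the myosin light chain kinase that contracts the ring of actin beside the junction, rose (log2 fold change 0.87, limma adjusted p = 0.0236). Hnf4a, a transcription factor of hepatocytes and enterocytes, went from 145, 161 and 144 TPM with Veh to 278, 233 and 316 TPM with CORT (log2 fold change 0.86, SE 0.15, limma adjusted p = 0.0211). The calls of the other liver genes were less stable. Leave-one-out fits lost the call of Spint2 and Dsp in 5 of 6, of Dsg2 and Mylk in 4 of 6, and of Cdh1, Mpdz and Hnf4a in 3 of 6. In the duodenum Cdh1 was at 175 to 205 TPM with Veh and 161 to 188 TPM with CORT, overlapping, and Hnf4a overlapped too.

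**Figure D5:**
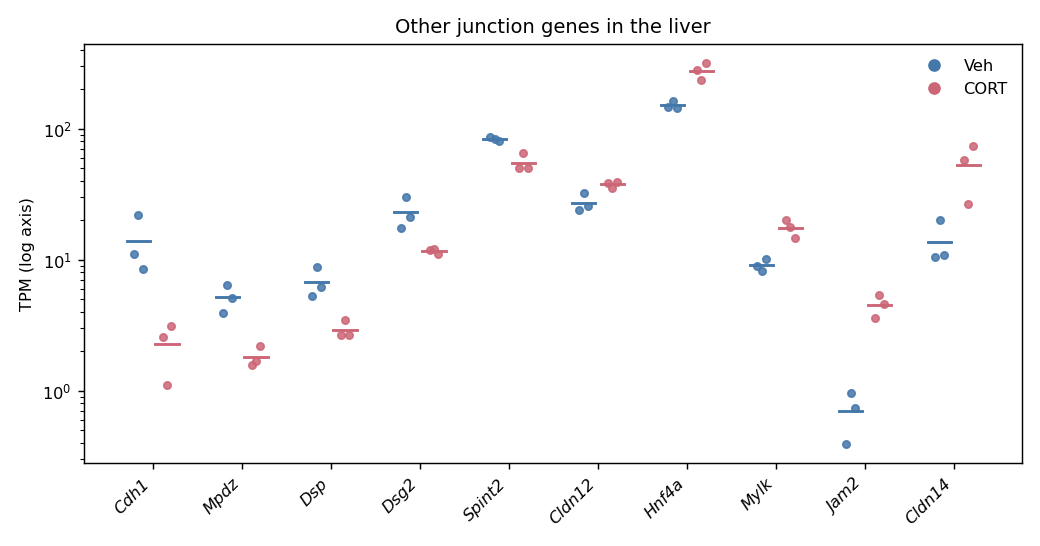
TPM on a log axis of the named junction genes outside the members in the liver, ordered by log2 fold change, with 1 point per library, Veh in blue and CORT in red, and a bar at each group's mean. Cdh1, Mpdz, Dsp, Dsg2 and Spint2 lie lower with CORT, and Hnf4a, Mylk, Jam2 and Cldn14 lie higher, all called, while Cldn12 lies higher without a call.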

How the data were processed

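RNA-seq of the duodenum and the liver was analysed in 3 CORT and 3 Veh libraries per tissue, grouped by the sample labels, which call them biological replicates. The authors used SeqPrep and Sickle for trimming, HISAT2 in orientation mode for alignment, StringTie for assembly and RSEM for quantification. The deposited tables give TPM, 1 column per library. The submitters' notes name the build GRCm39, and versions are not given in the sources used here. Whether counting used strand is not given either. The study's own test of DEGs used a count model and is not used here. TPM carry no depth, so no counting error can be given.

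Here genes whose mean reached 1 TPM with CORT or with Veh were kept, and log2(TPM + 1) was fitted with limma 3.58.1 in R 4.3.3 (lmFit, eBayes with a trend), each tissue alone, with Benjamini-Hochberg adjustment over all genes tested. The added 1 TPM shrinks the fold changes of low genes. A fit of all 12 libraries with 4 group means tested the difference between tissues. It took the libraries as independent, although the labels do not say whether liver and duodenum came from the same mice. The fits were tested on simulated data. For 3 against 3, the smallest two-sided p of an exact permutation test is 0.1. The members, the lists of other junction and marker genes and the motifs were chosen with earlier results of these data known. The genes named in the main results are all members, Fkbp5, Wbscr25 beside Cldn3, the genes called in the junction lists, and markers with their list. Claudins with a mean of at least 5 TPM or at least 1% of the claudin sum are named too. Junction genes without a call that appear under other observations fall outside this rule and were chosen after their values were seen. Alternatives were a pseudocount of 0.1, no filter, median-ratio scaling, the replicate number as a block, 1 fit of all libraries, unadjusted p-values, removal of acinar genes and leaving out each library. Leaving out Veh2 and Veh3 of the duodenum was chosen after seeing the data. Promoter windows come from RefSeq (GRCm38.p6) and were not converted to the build of the tables. Columns of the study's own comparisons were not used.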

Additional observations from a re-analysis of the deposited data

How the results depend on the processing

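With the pseudocount of 0.1 the 5 counts of calls among members, other junction genes and tissue differences stayed within 1.5 times their values, while Cldn7 moved from -0.59 to -1.18 in the liver and from -0.14 to -0.74 in the tissue difference, and Jam2 from 1.70 to 2.59. Of 472 values of single genes under alternatives, 387 kept direction and call, 62 lost a call, 16 gained one and 7 reversed. Genes without a call count among the 387 where they stayed uncalled, and only genes called in the main fit can lose a call. The 387 are therefore no measure of how stable the calls were. Members called in the duodenum were 0 without a filter on low values, where more genes were tested. They were 3 in the fit of all 12 libraries (Cldn4 and Cldn15 beside Cldn23) and 3 at unadjusted p. When each library was left out they were 0 to 1, where the 1 without Veh1 was Cldn4. Over all genes of the duodenum, 292 were called in the main fit and 52 of 24876 without a filter. The fit of all 12 libraries called 743 of 13607, unadjusted p 1395, and leaving out each library 66 to 237. Members called in the liver were 0 without a filter, 4 with median-ratio scaling and 3 in the fit of all 12 libraries (Cldn1 and Ocln beside Cldn3). At unadjusted p they were 4, and 0 to 2 when each library was left out. Over all genes of the liver, 810 were called in the main fit, 283 of 23316 without a filter and 1011 of 11654 with median-ratio scaling. The fit of all 12 libraries called 1384 of 11699, unadjusted p 1808, and leaving out each library 247 to 831. Other junction genes called in the duodenum were 1 in the fit of all 12 libraries and 4 at unadjusted p. In the liver they were 1 without a filter, 15 in the fit of all 12 libraries, 16 at unadjusted p and 1 to 8 when each library was left out, the lowest without CORT1. The counts over all genes given above hold for these settings as well. Members that differed between tissues were 1 with median-ratio scaling and 0 to 1 when each library was left out. The labels do not say whether replicate numbers pair the samples. Correlations of same-numbered Veh and CORT libraries were -0.0039 to 0.073 in the duodenum and -0.12 to 0.038 in the liver. Those of same-numbered duodenum and liver libraries were -0.016 to 0.10 with Veh and -0.13 to 0.035 with CORT. Not every library correlated best with its own number, but deviations within groups of 3 libraries cannot settle pairing. With the replicate number as a block, 0 members were called in the duodenum and 1 in the liver, beside 62 and 307 of all genes. Of the other junction genes, 1 was called in the liver, Jam2. When each library was left out, directions reversed for values near 0: F11r in the duodenum ran from -0.11 to 0.037 (0.028 without CORT1), Cldn2 in the duodenum from -0.13 to 0.44, Tjp1 in the liver from -0.066 to 0.48, and the tissue difference of Tjp1 from -0.30 to 0.24 (0.043 without CORT2 of the duodenum, 8.5e-04 without CORT2 of the liver). Why calls were lost or gained under these settings was not tested. TPM give no depth, so low genes such as Cldn7 in the liver have an unknown counting error.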

Other observations

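Genes of the junction lists that did not pass but whose groups did not overlap were found in both directions in the liver. Those named were chosen after their values were seen. Over the 62 genes tested, called ones included, every CORT library was above every Veh library for 11 and below for 14, beside 20.6% and 11.6% of all genes. Marveld2, which encodes tricellulin of the corners where 3 cells meet, was at 5.15, 8.72 and 3.94 TPM with Veh and 1.79, 2.00 and 2.93 TPM with CORT in the liver (log2 fold change -1.06, SE 0.27, limma adjusted p = 0.0651). Cgn, the gene of the cytoplasmic plaque protein cingulin, had 4.86, 6.61 and 5.25 TPM with Veh and 3.51, 4.04 and 2.29 TPM with CORT (log2 fold change -0.63, limma adjusted p = 0.108). Cldn5, the claudin of blood vessels, was at 1.92, 3.74 and 2.25 TPM with Veh and 1.06, 1.83 and 1.12 TPM with CORT in the liver (log2 fold change -0.62, limma adjusted p = 0.167), where Pecam1 rose. Among the genes on the higher side, Nectin1, an adherens junction receptor, had 7.73, 8.80 and 7.05 TPM with Veh and 11.1, 11.6 and 11.7 TPM with CORT (log2 fold change 0.50, limma adjusted p = 0.0612). Marveld3, of the occludin family, was at 0.28 to 0.78 TPM with Veh and 1.19 to 2.53 TPM with CORT (log2 fold change 0.92, limma adjusted p = 0.0762), and passed the filter only through its CORT mean. Prkci, Pard6b, Amotl1 and Cdh2 were on the same side, with log2 fold changes of 0.49, 0.38, 0.64 and 0.30. Of these, Amotl1 passed the filter only through its CORT mean.

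In the duodenum, Spint2 was at 782, 693 and 691 TPM with Veh and 585, 433 and 472 TPM with CORT (log2 fold change -0.55, limma adjusted p = 0.128), which is the direction of its call in the liver. Dsp went the other way, at 37.3, 30.3 and 30.6 TPM with Veh and 40.4, 51.1 and 47.7 TPM with CORT (log2 fold change 0.49, limma adjusted p = 0.144), whereas in the liver it fell. The difference between tissues was not tested for these genes.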
